A study of Homo sapiens with 24 samples.

Results

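SKBR3 cells, a HER2-amplified human breast cancer line, were left untreated or exposed to a low dose of doxorubicin, and the transcriptome was read after 7 days. The comparison described here holds the 3 doxorubicin libraries and the 3 libraries of untreated day-7 cells, chosen by the names of their columns in the count table, that is 6 of the 24 libraries of the series. Doxorubicin was given at 10 nmol/L and renewed with the medium on day 3. The untreated cells received no drug and were collected on day 7 as well, but their labels name no renewal of the medium, so the drug and the renewal cannot be told apart. For some results the untreated cells of day 0, the cells given 10 µmol/L bleomycin and the cells given 1 µmol/L palbociclib, each 3 libraries and both drugs renewed on day 3 and collected on day 7, were set beside them. All groups are 1 cell line in culture, and the sources do not say whether the 3 libraries of a group came from separate cultures, so that p-values measure the spread between these libraries, which may be technical.

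Doxorubicin is an anthracycline that intercalates into DNA and traps topoisomerase II on it, which leaves double-strand breaks. Cells that survive such damage can enter senescence, a lasting exit from the cell cycle in which inhibitors of the cyclin-dependent kinases (CDKs) hold the retinoblastoma protein active, E2F and MYB targets are silenced, lamin B1 is lost and a mixture of cytokines, proteases and growth factors, the senescence-associated secretory phenotype, is released. DNA fragments in the cytoplasm of damaged cells can also be sensed and lead to the expression of interferon-stimulated genes.

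Total counts lay between 30696139 and 40842973 in the doxorubicin libraries and between 31791397 and 44316330 in the untreated day-7 libraries. Levels are given below as CPM, a gene's counts as a share of the library's scaled total, with scaling factors set over all 24 libraries, so they compare 1 gene between libraries and not different genes. The table lists 14493 genes and no count of 0, so a gene that is not in it was not analysed here. Of the 14493, 13850 had enough counts to be tested by edgeR's quasi-likelihood test. On the log2 scale and over the genes tested, the doxorubicin libraries lay 33.7 to 43.3 apart from each other and 71.0 to 90.1 from the untreated day-7 libraries. Of 20 identity markers of the line, 19 were in the table. Of these 2 rose (10.5%, against 21.9% of all genes tested), 4 fell (21.1%, against 21.5%) and 13 did not pass. The fallen count was 2 without untreated replicate 1 and 7 in DESeq2. ERBB2 (the HER2 receptor) was at 6157, 5606 and 5399.7 CPM under doxorubicin and 7429, 6645 and 6319.9 CPM in untreated cells. Of 20 markers of fibroblasts, endothelium, leukocytes and basal cells, only 6 were in the table. Their summed level was 65.3 to 75.7 CPM under doxorubicin and 22.7 to 24.8 CPM in untreated cells, carried by CDH5 (vascular cadherin, 37.7, 37.8 and 47.0 against 2.43, 5.50 and 3.95 CPM), ACTA2, VWF and CD68, which rose, while COL1A1 fell and TP63 did not pass. VWF did not pass against day 0, and TP63 passed against day 0 and without untreated replicate 1. CDH1 and VIM were not in the table, and neither were the endothelial marker PECAM1 and the leukocyte marker PTPRC. The part of other cells in the results below was not tested.

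The first question was how far a week of doxorubicin changed the transcriptome. At an adjusted p under 0.05, 3040 genes rose (21.9% of those tested) and 2975 fell (21.5%). These shares are the background for the counts of the gene lists below. For 7482 genes (54.0%), every doxorubicin library lay on the same side of every untreated one. Most changes were small, and the large ones were mainly increases: at an adjusted p under 0.05 together with a change of at least 2-fold, 951 genes rose (6.87%) and 239 fell (1.73%). By the study's own kind of call, a change of at least 2-fold with an unadjusted p under 0.05, the counts were 970 (7.00%) and 244 (1.76%). In a pool of cells, a change in the number of cells that express a gene and a change of its RNA per cell cannot be told apart.

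**Figure D1:**
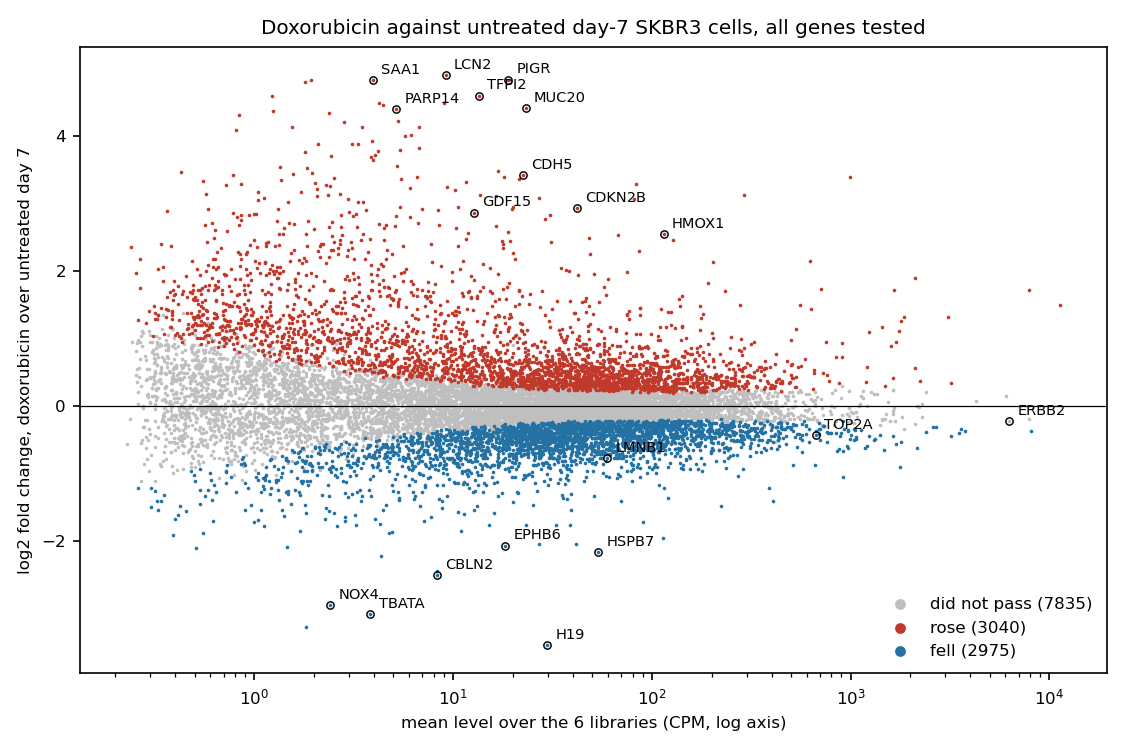
Each point is 1 of the 13850 genes tested, with its mean level over the 6 libraries on the x axis (CPM, log axis) and its log2 fold change, doxorubicin over untreated day 7, on the y axis. The 3040 genes that rose are red, the 2975 that fell are blue and the rest are grey, and circles mark some named genes, with LCN2 at 4.89 at the top and H19 at -3.54 at the bottom.

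The gene that rose most was LCN2 (chr9:130911350-130915732, GRCh37, plus strand), which encodes lipocalin 2, a secreted protein that binds iron-carrying siderophores. Its level was 16.7, 19.2 and 17.3 CPM in the doxorubicin libraries and 0.375, 1.22 and 0.267 CPM in the untreated ones, a log2 fold change of 4.89 ± 0.33 (SE) with an adjusted p of 7.48e-07 in edgeR's test. The lowest doxorubicin library stood far above the highest untreated one. PIGR, the receptor that carries polymeric immunoglobulin across epithelia, was at 26.1, 42.8 and 40.7 CPM against 0.683, 2.17 and 1.16 CPM (log2 fold change 4.83 ± 0.30). SAA1, an acute-phase protein, was at 8.20, 5.96 and 8.74 CPM against 0.287, 0.405 and 0.119 CPM (4.82 ± 0.31). Both genes were thus near the lower end of detection in untreated cells and well above it in all 3 doxorubicin libraries.

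The other 12 of the 15 strongest risers had log2 fold changes between 4.31 and 4.82. They include proteins of the extracellular matrix and its remodelling, such as FMOD (fibromodulin) and TFPI2 (a secreted serine protease inhibitor), the actin crosslinker FLNC, and the activin subunit INHBA. TFPI2 reached 23.5, 18.5 and 35.6 CPM from 0.507, 1.71 and 1.16 CPM. MUC20, a membrane mucin, went to 46.9, 40.7 and 44.8 CPM from 1.48, 2.84 and 2.11 CPM. APOL1, an innate immunity lipoprotein that interferons induce, and PARP14, described below, are also among them. TCHH and TCHHL1, which encode trichohyalin and its relative, lie next to each other on chromosome 1 (chr1:152078793-152087920 and chr1:152056617-152061540, GRCh37, both on the minus strand) and rose together by 4.59 ± 0.34 and 4.48 ± 0.26. MRGPRE, an orphan receptor, and EID3, an SMC5/6 complex subunit, belong to the group too.

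Of the 10 genes that fell most, H19 fell furthest. This imprinted long noncoding RNA (chr11:2016396-2025782, GRCh37, minus strand) was at 4.75, 4.68 and 4.54 CPM under doxorubicin and at 64.5, 40.7 and 59.8 CPM in untreated cells, a log2 fold change of -3.54 ± 0.17 (adjusted p = 6.74e-08, edgeR). The 3 doxorubicin libraries were nearly alike and all far below the lowest untreated library. NOX4, an oxidase that makes hydrogen peroxide, was at 0.629, 0.371 and 0.605 CPM against 4.56, 3.04 and 5.16 CPM (-2.95 ± 0.29). HSPB7, a small heat shock protein, was the most abundant of the 10 in untreated cells, at 81.2, 92.8 and 90.2 CPM there and 19.3, 24.4 and 13.9 CPM under doxorubicin (-2.17 ± 0.16). The remaining members were TAFA5, TBATA, CBLN2, MUC5B, LMO1, KCNIP3 and EPHB6, with log2 fold changes from -3.28 to -2.07, and KCNIP3 did not pass against day 0 (-0.52).

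CDK inhibitors and p53 targets were examined first, since they are the brakes through which damage usually stops the cycle. CDKN2B, which encodes the CDK4/6 inhibitor p15, gave the main change among the 7 inhibitors tested, of which 2 rose and 2 fell (median log2 fold change -0.16, against 0.00 over all genes tested). It lies at chr9:22002902-22009304 (GRCh37, minus strand), within the span of an antisense RNA, and was at 76.8, 58.2 and 86.6 CPM under doxorubicin and 8.22, 10.7 and 10.7 CPM in untreated cells (log2 fold change 2.93 ± 0.15, adjusted p = 1.26e-07, edgeR). No doxorubicin library came near the untreated range. CDKN1A (p21), the classical p53-induced inhibitor, moved much less, from 10.8, 9.87 and 14.9 CPM to 20.8, 19.2 and 17.4 CPM (0.72 ± 0.15, adjusted p = 0.00253, edgeR). Against untreated day-0 cells its log2 fold change was 0.32, with an adjusted p of 0.346 in edgeR's test. CDKN2A, the neighbour of CDKN2B that encodes p16 and ARF, was at 14.1, 11.2 and 12.9 CPM against 12.5, 11.2 and 12.5 CPM and did not pass (0.10 ± 0.13), and neither did CDKN1B (p27, -0.16 ± 0.10), which passed without untreated replicate 1 (-0.26). The members that fell, CDKN3 (-1.02 ± 0.11) and CDKN2C (-0.64 ± 0.12), are both cell-cycle-regulated genes. CDKN1C was not in the table.

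Of 26 p53 target genes 6 rose, 23.1% against 21.9% of all genes, and 3 fell, 11.5% against 21.5%. The fallen count was 6 with replicate numbers as a block and 5 in DESeq2 or without untreated replicate 2. The median log2 fold change was 0.04. MDM2, the p53 ubiquitin ligase and one of its most direct targets, was at 111, 119 and 122 CPM against 121, 115 and 123 CPM (-0.01 ± 0.08). The members with the largest increases were TP53INP1, an autophagy and apoptosis cofactor (1.70 ± 0.22), PMAIP1, the BH3-only protein NOXA (1.34 ± 0.22), and the antiproliferative gene BTG2 (0.81 ± 0.16), while FDXR, ferredoxin reductase, fell (-0.75 ± 0.12).

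The genes of S phase and mitosis fell almost without exception, but by modest amounts. Of 37 genes that load the MCM helicase and build the replication fork, 34 fell and 0 rose, with a median log2 fold change of -0.53. Of 10 deoxynucleotide synthesis enzymes, 9 fell (median -0.71), and of 53 mitosis genes 47 fell and 0 rose (median -0.48), against a background of 21.5% of genes falling. When any 1 of the 6 libraries was left out, the fallen counts ranged from 27 to 36 for the replication genes and from 40 to 49 for the mitosis genes. Changes of at least 2-fold were few, 3 of 37, 4 of 10 and 4 of 53.

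RRM2, the ribonucleotide reductase subunit that limits deoxynucleotide supply, was at 177, 166 and 186 CPM under doxorubicin and 413, 305 and 389 CPM in untreated cells (log2 fold change -1.04 ± 0.11, adjusted p = 2.03e-05, edgeR). DTYMK (thymidylate kinase) and TYMS (thymidylate synthase) fell alongside it, with log2 fold changes of -1.42 ± 0.14 and -1.06 ± 0.10. SAMHD1, which degrades deoxynucleotides, was the member that did not pass (0.26 ± 0.12), except without untreated replicate 1 (0.35). The fork genes with the largest decreases were POLE2 (a polymerase epsilon subunit, -1.34 ± 0.14), GINS2 and CDC45 (partners of the MCM helicase, -1.29 ± 0.13 and -1.15 ± 0.12) and RFC5 (a clamp loader subunit, -0.93 ± 0.11). Upstream of them, 8 of 16 cell-cycle transcription factors fell and 0 rose. MYBL2, the activator of the MuvB complex, went from 197, 141 and 183 CPM to 64.0, 69.9 and 64.9 CPM (-1.37 ± 0.11), and the E2F family repressors E2F7 and E2F8 fell by -1.04 ± 0.15 and -0.86 ± 0.15.

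Among the mitosis genes, PTTG1 (securin) fell most, from 55.4, 49.2 and 46.5 CPM to 21, 21.4 and 17.3 CPM (-1.32 ± 0.11). SPC24 and SPC25, subunits of the NDC80 complex that holds microtubules at the kinetochore, fell by -1.20 ± 0.18 and -1.13 ± 0.18, and NUSAP1, a spindle protein, by -1.0 ± 0.08. CCNB1 (cyclin B1) was at 87.9, 80.5 and 81.3 CPM against 143, 121 and 125 CPM (-0.62 ± 0.09). All these doxorubicin libraries were below all untreated ones, yet every one of these messages was still plainly expressed. MKI67, which encodes the proliferation antigen Ki-67, did not pass, at 220.4, 195 and 240.0 CPM against 342, 244 and 245 CPM (-0.32 ± 0.13, adjusted p = 0.0606, edgeR). It passed without doxorubicin replicate 3, untreated replicate 2 or untreated replicate 3 (-0.42 to -0.41). With replicate numbers as a block its adjusted p was 0.0305, and against day-0 cells its log2 fold change was -1.01 (adjusted p = 0.00834, both edgeR).

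Many mitosis genes carry a cell cycle homology region (CHR), a short element near the start site through which the MuvB complexes act. The sequence TTTGAA was searched on both strands of the promoter, taken as 250 bases before to 50 after the start in RefSeq's table. Of the 47 mitosis genes that fell, 40 had a promoter there and 26 of the 40 held the element (65.0%), against 9.48% of the 10706 promoters of all genes tested and 10.3% of those of all 2975 genes that fell. The E2F site TTTCCCGC was held by 9 of 29 promoters of fallen replication genes (31.0%), against 2.59% of all tested. The 3 promoters printed here are those of the mitosis genes with the largest decreases among the ones that hold the CHR element and are shown with that element in capitals. A match is a description of the letters and not a bound site. The lists were chosen by gene function, so these shares describe the lists. Whether list members that did not fall hold the elements as often was not tested. By an exact match of the whole window to the genome, they lie in GRCh37 at chr2:169746891-169747190 (minus strand) for SPC25, chr15:41624829-41625128 (plus strand) for NUSAP1 and chr12:6960401-6960700 (minus strand) for CDCA3, a regulator of mitotic entry that fell by -0.98 ± 0.13.
SPC25: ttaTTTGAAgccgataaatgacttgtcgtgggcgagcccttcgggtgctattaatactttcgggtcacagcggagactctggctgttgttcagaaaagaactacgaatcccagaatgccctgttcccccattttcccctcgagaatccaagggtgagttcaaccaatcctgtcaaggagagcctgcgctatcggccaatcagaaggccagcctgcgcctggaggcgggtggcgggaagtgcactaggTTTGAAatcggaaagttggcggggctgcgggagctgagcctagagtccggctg
NUSAP1: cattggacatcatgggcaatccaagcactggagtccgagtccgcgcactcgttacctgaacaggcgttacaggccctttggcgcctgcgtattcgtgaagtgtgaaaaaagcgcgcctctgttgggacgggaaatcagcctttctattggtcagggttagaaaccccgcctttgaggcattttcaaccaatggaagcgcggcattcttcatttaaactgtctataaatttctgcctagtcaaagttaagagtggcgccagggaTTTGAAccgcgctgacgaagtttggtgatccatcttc
CDCA3: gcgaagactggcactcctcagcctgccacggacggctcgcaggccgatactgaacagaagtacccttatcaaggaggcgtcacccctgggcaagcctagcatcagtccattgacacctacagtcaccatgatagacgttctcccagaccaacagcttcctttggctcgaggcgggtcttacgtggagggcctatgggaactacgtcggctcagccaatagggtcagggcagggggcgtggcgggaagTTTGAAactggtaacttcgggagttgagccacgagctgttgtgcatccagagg

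The target of the drug and the genes that handle it were compared next. TOP2A, the proliferation-linked topoisomerase II that doxorubicin traps, was at 555, 529 and 615 CPM against 735, 821 and 769 CPM (log2 fold change -0.43 ± 0.09, adjusted p = 0.00281, edgeR). TOP2B, its counterpart in resting cells, was at 163, 161 and 177 CPM against 163, 179 and 162 CPM (0.01 ± 0.08), and TOP1 was also within its spread (0.09 ± 0.08). Neither of these 2 passed the test. Across the 20 topoisomerases and handling genes tested, 9 rose and 2 fell (median 0.25). The largest increases were those of the efflux pumps ABCC4, at 23.0, 30.4 and 36.0 CPM against 6.64, 11.6 and 7.51 CPM (1.82 ± 0.20), and ABCC3 (1.70 ± 0.23), of the transporter SLC22A4 (1.74 ± 0.40) and of the aldo-keto reductase AKR1B1 (1.19 ± 0.38), whose call was lost without any 1 of 3 libraries, doxorubicin replicate 3 or untreated replicate 1 or 3 (adjusted p 0.0890 to 0.109, edgeR).

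Messages of the DNA repair machinery fell more often than they rose. Of 33 homologous recombination and Fanconi genes 16 fell (48.5%) and 1 rose (3.03%), with a median of -0.36. Of 21 checkpoint kinase and end-joining genes 9 fell (42.9%) and 2 rose (9.52%), with a median of -0.13. Over all genes tested, 21.5% fell and 21.9% rose. BRIP1, FANCC and XRCC3, which act in recombination or the Fanconi pathway, fell by -0.78 to -0.74. PARP1, the break sensor, went from 403, 404 and 428 CPM to 256, 282 and 273 CPM (-0.58 ± 0.08), and its relative PARP2, the checkpoint kinase CHEK2 and the histone variant H2AX fell by -0.56 to -0.52. The exceptions, named after their values were seen, were RAD50 (0.29 ± 0.09), the end-joining ligase LIG4 (0.50 ± 0.10) and TP53BP1 (0.31 ± 0.08). The RAD50 call was lost without any 1 of 4 libraries (doxorubicin replicates 1 and 3, untreated replicates 1 and 3, adjusted p up to 0.103) and that of TP53BP1 without untreated replicate 3 (adjusted p = 0.0506, edgeR).

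Nuclear structure genes showed the lamin B1 decrease that is often used to mark senescence. LMNB1 was at 39.8, 46.6 and 44.1 CPM under doxorubicin and 80, 66.5 and 79.8 CPM in untreated cells (-0.77 ± 0.10, adjusted p = 8.94e-05, edgeR). In the list of lamins and chromatin proteins 17 of 30 fell and 0 rose (median -0.36), among them the histone variant H2AZ1 (-0.73 ± 0.08), the histone chaperone ASF1B (-0.72 ± 0.12), the lamina protein TMPO (-0.69 ± 0.09) and HMGB2 (-0.65 ± 0.10). Histone genes went the other way, 10 of 18 up and 2 down (median 1.04). The linker histone H1-2 was at 105, 82.0 and 79.6 CPM against 31.8, 25.3 and 30.2 CPM (1.64 ± 0.12), and H2BC4, H4C8 and H2AC18 rose by 2.33 ± 0.23, 1.98 ± 0.17 and 1.60 ± 0.17. Most replication-dependent histone messages carry no poly(A) tail, and the sources name an mRNA kit in 1 place and a total RNA kit in another, so whether such messages were captured in full is not known. Members of these clusters are near-identical copies between which reads can be split.

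Interferon effectors had the second highest median of the 36 lists, after the secreted cytokines. Type I and II interferons act through receptors and JAK kinases on transcription factors, and many effector genes carry the interferon-stimulated response element (ISRE). Of 12 sensors of foreign or misplaced nucleic acid 9 rose and 0 fell (median 0.35). Against day-0 cells 5 rose and 0 fell (median 0.23), and with replicate numbers as a block 9 rose and 1 fell. DDX58 (RIG-I) was at 11.6, 13 and 9.37 CPM against 3.75, 4.26 and 3.80 CPM (1.55 ± 0.16), and its relative DHX58 (LGP2) rose by 1.92 ± 0.20. STING1, the adaptor of DNA sensing, rose by 0.72 ± 0.19 and the kinase IKBKE by 0.48 ± 0.13, but neither call held against day-0 cells (log2 fold change 0.10 and 0.17), and that of IKBKE was lost without doxorubicin replicate 1 too.

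Of 23 receptors and signalling genes 12 rose and 0 fell (median 0.40). IRF1, a transcription factor that both interferon types induce, was at 36.0, 29.6 and 33.2 CPM against 6.77, 7.27 and 6.89 CPM (2.26 ± 0.11, adjusted p = 1.02e-07, edgeR). IRF9 was at 24.6, 25.8 and 23.4 CPM against 4.74, 6.66 and 6.95 CPM (2.04 ± 0.15). These libraries were tightly grouped on both sides. IRF7 rose by 1.28 ± 0.19 and the interferon gamma receptor chain IFNGR1 by 1.11 ± 0.12.

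Effector genes rose in 21 of 30 cases, 19 of them at least 2-fold, and 4 fell (median 1.35). In each fit that left out 1 of the 6 libraries the risen count was again 21. PARP14, a mono-ADP-ribosyltransferase, was at 8.65, 9.61 and 11.4 CPM against 0.485, 0.637 and 0.297 CPM (4.39 ± 0.25, adjusted p = 2.49e-07, edgeR). PARP9 was at 7.18, 6.24 and 6.26 CPM against 0.375, 0.55 and 0.208 CPM (4.13 ± 0.27), and its partner ubiquitin ligase DTX3L at 27.7, 28.9 and 31.4 CPM against 2.65, 4.34 and 3.47 CPM (3.11 ± 0.16). These last 2 genes lie head to head on opposite strands (chr3:122246771-122283424 and chr3:122283185-122294050, GRCh37) and overlap at their ends, where reads could not be told apart if strand was not used in counting. OAS2, an RNA-activated synthetase, was at 11.2, 16.1 and 10.1 CPM against 0.529, 1.04 and 1.19 CPM (3.82 ± 0.28), and SAMD9, an antiviral factor that limits translation, rose by 3.31 ± 0.15. The 4 members that fell, named after their values were seen, were IFITM2 (-0.65), ISG20 (-0.59), LY6E (-0.44) and USP18 (-0.41), the last a brake on interferon signalling. The LY6E call was lost without doxorubicin replicate 1, that of USP18 without doxorubicin replicate 3 or untreated replicate 1, and that of ISG20 against day 0.

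An ISRE core, searched as GAAANNGAA on both strands, was found in 15 of 20 promoters of the risen effectors (75.0%). This compares with 6.44% of the promoters of all genes tested and 8.24% of those of all genes that rose. As for the CHR element, the share describes a list chosen by function. Whether effectors that did not rise hold the core as often was not tested. The 3 promoters printed here, shown because they carry the element through which the IRF9 complex acts, belong to the members with the largest increases among those holding the core, which is in capitals. They lie in GRCh37 at chr3:122399436-122399735 (plus strand) for PARP14, chr7:92747243-92747542 (minus strand) for SAMD9 and chr3:122282935-122283234 (plus strand) for DTX3L, where the last 50 bases of the window fall in the overlap with PARP9.
PARP14: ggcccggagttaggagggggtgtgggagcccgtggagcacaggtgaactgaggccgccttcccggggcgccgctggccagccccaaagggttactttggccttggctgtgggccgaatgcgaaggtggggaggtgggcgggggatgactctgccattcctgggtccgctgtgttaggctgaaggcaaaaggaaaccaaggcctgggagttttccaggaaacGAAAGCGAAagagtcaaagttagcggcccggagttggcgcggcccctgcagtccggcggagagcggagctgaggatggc
SAMD9: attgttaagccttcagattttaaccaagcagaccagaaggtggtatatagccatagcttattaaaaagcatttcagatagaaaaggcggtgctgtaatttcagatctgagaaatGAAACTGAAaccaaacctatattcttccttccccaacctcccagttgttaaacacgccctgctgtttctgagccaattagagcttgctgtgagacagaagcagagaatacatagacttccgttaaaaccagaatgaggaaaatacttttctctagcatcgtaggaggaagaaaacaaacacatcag
DTX3L: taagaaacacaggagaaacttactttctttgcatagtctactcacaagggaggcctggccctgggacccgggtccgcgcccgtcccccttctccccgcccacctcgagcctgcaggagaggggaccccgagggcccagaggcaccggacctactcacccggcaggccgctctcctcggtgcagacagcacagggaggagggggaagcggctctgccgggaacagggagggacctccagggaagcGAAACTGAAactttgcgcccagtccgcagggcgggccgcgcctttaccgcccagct

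Antigen presentation by MHC class I, which interferons and NF-kB both raise, followed the same direction, with 14 of 19 genes risen and 0 fallen (median 0.95). The immunoproteasome subunit PSMB9 was at 4.29, 5.05 and 4.20 CPM against 0.948, 0.840 and 0.801 CPM (2.40 ± 0.21), the peptide-trimming enzyme ERAP2 rose by 2.84 ± 0.41, the class I transactivator NLRC5 by 1.83 ± 0.28 and the peptide editor TAPBPL by 1.80 ± 0.38. The heavy chain genes HLA-B and HLA-C, named after their values were seen, rose by 1.40 and 1.09, though reads of such near-identical genes may be split between them. The ISRE core was in 6 of 12 promoters of the risen genes (50%).

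Surface ligands that restrain or alert lymphocytes rose in 10 of 16 cases and fell in 0 (median 0.37). The risen count was 4 without untreated replicate 3, 5 without doxorubicin replicate 1 and 6 without doxorubicin replicate 3 or untreated replicate 2. CD274, which encodes PD-L1, was at 10.2, 7.56 and 11.2 CPM against 2.38, 2.23 and 3.59 CPM (1.84 ± 0.21, adjusted p = 4.05e-05, edgeR). LGALS9 (galectin 9) was at 3.96, 5.02 and 3.99 CPM against 0.463, 0.463 and 0.445 CPM (3.25 ± 0.24). The inhibitory adhesion molecule CEACAM1 rose by 2.81 ± 0.28 and the NKG2D ligand RAET1G by 1.89 ± 0.39, from levels around or under 1 CPM.

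NF-kB is the other main driver of the secretory phenotype, and of 27 of its subunits and targets 17 rose and 0 fell (median 0.52). ICAM1, the adhesion ligand of leukocyte integrins, was at 34.8, 28.1 and 41.4 CPM against 4.10, 5.27 and 4.72 CPM (2.92 ± 0.16, adjusted p = 1.61e-07, edgeR). PLAU (urokinase), BIRC3 (an inhibitor of apoptosis) and TRAF1 (a signalling adaptor) rose by 2.74 ± 0.39, 2.47 ± 0.15 and 2.27 ± 0.33. The sequence GGNNTTTCC is the core of many NF-kB sites and in part the same letters as the E2F site. It was in 8 of 14 promoters of the risen genes (57.1%), against 6.63% of all tested. Here too the share describes a list chosen by function, and members that did not rise were not searched apart.

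Secreted cytokines and chemokines had the highest median of the 36 lists, 1.72, with 12 of the 13 genes in the table risen, 11 of them at least 2-fold, and 0 fallen. Only 13 of 38 listed genes were in the table, and IL6, CXCL8 and CXCL10 were not. Besides LCN2 and SAA1, the members were led by CCL2, which draws monocytes, at 23.0, 12.5 and 20.9 CPM against 3.68, 1.59 and 2.05 CPM (2.94 ± 0.29), and GDF15, a stress cytokine, at 26.4, 21.8 and 18.7 CPM against 1.85, 5.50 and 2.14 CPM (2.86 ± 0.31). The untreated library with the highest LCN2 and GDF15, replicate 2, was still below every doxorubicin library. IL32, CSF1 and TNF, named after their values were seen, rose by 2.14, 1.67 and 1.43.

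Among secreted proteases, inhibitors and growth factors 18 of 31 rose and 1 fell (median 0.50). MMP2, a gelatinase, was at 5.66, 6.24 and 6.86 CPM against 0.551, 0.347 and 0.356 CPM (3.88 ± 0.24). Cathepsin S (CTSS) and the protease inhibitor SERPINA3 rose by 3.71 ± 0.30 and 3.64 ± 0.26.

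**Figure D2:**
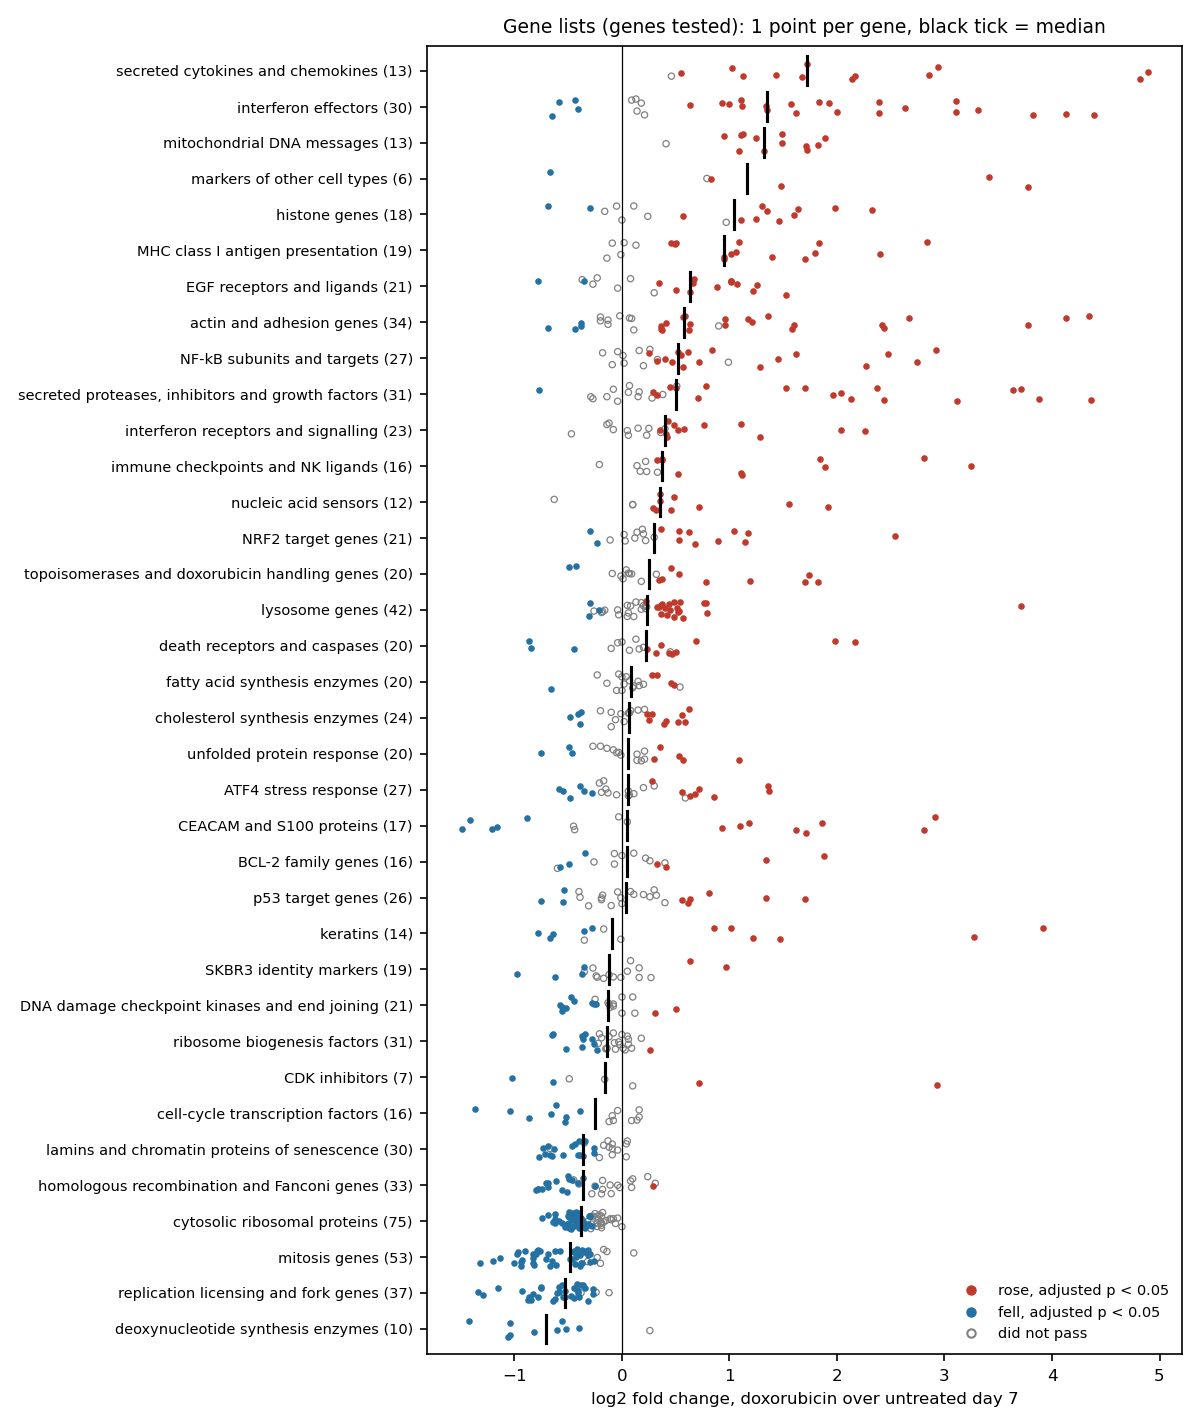
Log2 fold change, doxorubicin over untreated day 7, of each tested gene (points) in the 36 gene lists, ordered by their median (black tick), with the number of genes tested in brackets (red rose and blue fell at an adjusted p under 0.05, open did not pass). Medians run from 1.72 for the secreted cytokines to -0.71 for the deoxynucleotide enzymes, and the replication list has no red point.

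Lysosomal content is the basis of the senescence-associated beta-galactosidase stain, and its messages rose slightly. Of 42 lysosome genes 21 rose and 3 fell (median 0.23), against the background of 21.9% rising. GLB1, the gene of the stained enzyme, was at 188, 186 and 188 CPM against 168, 165 and 155 CPM (0.22 ± 0.07, adjusted p = 0.0279, edgeR), a call that was lost without any 1 of 4 of the 6 libraries (doxorubicin replicates 1 and 3, untreated replicates 2 and 3, adjusted p up to 0.164). FUCA1, NPC1 and ASAH1, a fucosidase, the cholesterol exporter and acid ceramidase, rose by 0.79 ± 0.14, 0.78 ± 0.10 and 0.76 ± 0.10.

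Stress genes were examined next. Of 21 targets of the oxidative stress factor NRF2, 10 rose and 2 fell, 47.6% and 9.52% against 21.9% and 21.5% of all genes. Their median was 0.30, or 0.13 without doxorubicin replicate 2. HMOX1, heme oxygenase 1, led them at 211, 181 and 193 CPM against 36.2, 35.2 and 30.7 CPM (2.54 ± 0.10, adjusted p = 3.40e-08, edgeR). FTH1 (ferritin heavy chain), OSGIN1 and GCLM (a glutathione synthesis subunit) rose by 1.17 ± 0.18, 1.14 ± 0.14 and 1.04 ± 0.14. In the ATF4 list 8 of 27 genes rose and 6 fell, 29.6% and 22.2% against 21.9% and 21.5% of all genes. The median of 0.06 was -0.07 without doxorubicin replicate 2, -0.05 without untreated replicate 1 and 0.17 without untreated replicate 2, and against day 0, 13 rose and 3 fell (median 0.43). The risers with the largest changes were the transcription factors ATF3 (1.37 ± 0.09) and DDIT3 (0.86 ± 0.18), the phosphatase subunit PPP1R15A (1.36 ± 0.14) and the amino acid transporter chain SLC3A2 (0.72 ± 0.11, lost against day 0). The fallers, named after their values were seen, included the serine and asparagine synthesis enzymes PSAT1, PHGDH and ASNS (-0.55, -0.48 and -0.59). Those of PSAT1 and ASNS did not hold against day 0 (both -0.18) and that of PHGDH was lost without doxorubicin replicate 1 or 3. In the unfolded protein response 5 of 20 rose and 3 fell, 25% and 15% and so near the shares of all genes. The risen count was 3 without doxorubicin replicate 1, doxorubicin replicate 3 or untreated replicate 1, and the fallen count 5 in DESeq2. Among its members were the sensors ERN1 and EIF2AK3, up by 1.09 ± 0.12 and 0.53 ± 0.11, the ubiquitin ligase SYVN1, up by 0.57 ± 0.08, and the chaperone CRELD2 (-0.75 ± 0.10).

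Messages made from mitochondrial DNA took 5.71%, 5.45% and 4.02% of the counts in the doxorubicin libraries and 2.93%, 1.22% and 1.36% in the untreated day-7 libraries. Of 13 such messages 12 rose and 0 fell (median 1.32). DESeq2 called 7 of them risen, and leaving out 1 library gave 8 to 13. In edgeR's test, all 19 tRNA genes in the table, which carry the symbols of mitochondrial tRNAs, rose too. ND5, a complex I subunit, was at 3867, 3372 and 2691 CPM against 1466, 583 and 678 CPM (1.89 ± 0.28), and ND6, ND4L and ND4 rose by 1.82 ± 0.25, 1.72 ± 0.29 and 1.71 ± 0.29. Against day-0 cells, whose shares were 8.01%, 1.22% and 1.51%, 0 of the 13 passed in either direction (median 0.43). Of the untreated references, the increase thus passed the test against that of day 7 only. The share of day-0 replicate 1 was above that of every doxorubicin library, and those of day-0 replicates 2 and 3 were below. Compared with palbociclib, 11 of the 13 were higher and 0 lower (median 1.02), or 4 higher without doxorubicin replicate 1. Compared with bleomycin, 0 were higher and 3 lower (median -0.59), with 0 to 7 lower when 1 library was left out. Ribosomal proteins of the cytosol fell in 48 of 75 cases (64.0%, against 21.5% of all genes) and rose in 0. Their median was -0.38, with 33 to 68 fallen when 1 library was left out. Ribosome biogenesis factors fell in 10 of 31 cases (32.3%, median -0.14), or 6 without doxorubicin replicate 1. RPL12 was at 432, 495 and 369 CPM against 695, 748 and 678 CPM (-0.69 ± 0.11), RPS28, RPL10 and RPS3A fell by -0.74 to -0.62, and the nucleolar methyltransferase FBL by -0.65 ± 0.09. Processed copies of ribosomal protein genes are frequent in the genome, so reads may be shared with them.

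Lipid synthesis, which is strong in this line, changed little against day 7. Of 20 fatty acid synthesis genes 4 rose and 1 fell (median 0.08), a share of risers near the background, and the risen count was 0 without untreated replicate 3, 1 without doxorubicin replicate 2 and 2 without doxorubicin replicate 3 or untreated replicate 1. FASN was at 5400.2, 8047 and 5495 CPM against 6341, 5750.3 and 5286 CPM and did not pass (0.15 ± 0.16), and ACACA rose by 0.28 ± 0.09, a call lost without any 1 of 4 libraries (doxorubicin replicates 2 and 3, untreated replicates 2 and 3). Its mitochondrial counterpart ACACB fell (-0.66 ± 0.11), but not against day 0. The acyl-CoA synthetases ACSL1 and ACSL3 rose by 0.46 ± 0.14 and 0.33 ± 0.08 and the desaturase FADS2 by 0.48 ± 0.16, and each of these calls was lost without untreated replicate 3 (log2 fold change 0.34, 0.27 and 0.33), those of ACSL1 and FADS2 also without doxorubicin replicate 2 or untreated replicate 1 and that of FADS2 without doxorubicin replicate 3. Against day-0 cells, 13 of the 20 rose and FASN was among them (0.69). Of 24 cholesterol synthesis genes 9 rose and 4 fell, 37.5% and 16.7% against 21.9% and 21.5% of all genes (median 0.07). Among them MSMO1, SC5D, SQLE and the LDL receptor were up by 0.62 to 0.52.

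Keratins and adhesion genes changed in composition. Of 14 keratins 6 rose and 5 fell, 42.9% and 35.7% against 21.9% and 21.5% of all genes (median -0.09). The fallen count was 3 without doxorubicin replicate 3, untreated replicate 1 or untreated replicate 3. KRT17 and KRT16, keratins of injured and activated epithelium, were among the strongest, KRT17 at 8.67, 6.04 and 7.17 CPM against 0.441, 0.405 and 0.623 CPM (3.92 ± 0.25) and KRT16 up by 3.27 ± 0.26. KRT80 was at 284, 238 and 244 CPM against 98.5, 90.8 and 91.0 CPM (1.47 ± 0.09), and KRT15 rose by 1.22 ± 0.17 but not against day 0. Luminal KRT8 and the hair keratin KRT81, named after their values were seen, fell by -0.35 and -0.67, the KRT8 call being lost without any 1 library other than untreated replicate 2. Of 34 actin and adhesion genes 21 rose and 4 fell (median 0.58). ITGB3 (integrin beta 3) reached 2.84, 2.02 and 3.93 CPM from 0.176, 0.145 and 0.178 CPM (4.13 ± 0.36), ACTA2 (smooth muscle actin) 11.6, 9.07 and 9.34 CPM from 0.573, 0.521 and 1.16 CPM (3.78 ± 0.26), and ITGB8 rose by 2.67 ± 0.45.

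Among EGF receptors, ligands and their feedback genes 13 of 21 rose and 2 fell (median 0.63). EGFR was at 222, 196 and 263 CPM against 140.4, 149 and 143 CPM (0.67 ± 0.10, adjusted p = 2.56e-04, edgeR), its ligand HBEGF rose by 1.53 ± 0.21, the HER3 and HER4 ligand NRG2 by 1.22 ± 0.30, and the ERK feedback genes DUSP5 and SPRY2 by 1.26 ± 0.20 and 1.07 ± 0.26. ERBB2 did not pass in edgeR's test (-0.23 ± 0.11, adjusted p = 0.126) but did in DESeq2's (adjusted p = 0.0409), while MIEN1, its neighbour in the 17q12 amplicon and named after its values were seen, fell (-0.78). Of the luminal identity genes, the epithelial factors ELF3 (0.97 ± 0.09) and the tight junction claudin CLDN4 (0.63 ± 0.09) rose, and SPDEF (-0.62 ± 0.12) and TFAP2B (-0.98 ± 0.27, lost without untreated replicate 1) fell.

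The S100 genes moved in opposite directions although they lie side by side on chromosome 1. Together with the CEACAM genes, 8 of 17 rose and 5 fell. S100A7 (psoriasin, chr1:153430220-153433127) and the calprotectin chain S100A8 (chr1:153362508-153363549) rose by 2.91 ± 0.28 and 1.86 ± 0.15, and S100A9 (chr1:153330330-153333499) was at 205, 238 and 194 CPM against 60.4, 75.9 and 74.9 CPM (1.62). The fallers S100A4 (chr1:153516089-153522612, -1.49), S100A16 (chr1:153579362-153585621, -1.41), S100A14 (-1.21), S100A13 (-1.16) and S100A6 (-0.88) lie further along the same cluster (GRCh37). S100A9 and the fallers were named after their values were seen. CEACAM19 rose as well (1.71 ± 0.40).

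Of 16 BCL-2 family genes 4 rose and 3 fell, shares of 25% and 18.8% that are near those of all genes tested (21.9% and 21.5%). BMF, a BH3-only killer protein, was at 91.5, 86.0 and 104 CPM against 18, 32.7 and 27.5 CPM (1.88 ± 0.17), and the effector BAK1 and the sensitizer BAD fell by -0.49 ± 0.09 and -0.58 ± 0.15. BCL2L1, which encodes the survival protein BCL-xL, did not pass (83.2, 83.2 and 72.0 against 87.0, 71.5 and 66.6 CPM, 0.11 ± 0.11), and against day 0 it was lower (-0.33, adjusted p = 0.0282, edgeR). Of 20 death receptor and caspase genes 9 rose and 3 fell, 45% and 15%. TNFSF10 (TRAIL) and the inflammatory caspase CASP4, both interferon-inducible, rose by 2.17 ± 0.24 and 1.98 ± 0.15, and the pore former GSDMD and the necroptosis kinase RIPK3 fell by -0.86 ± 0.10 and -0.85 ± 0.22.

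**Figure D3:**
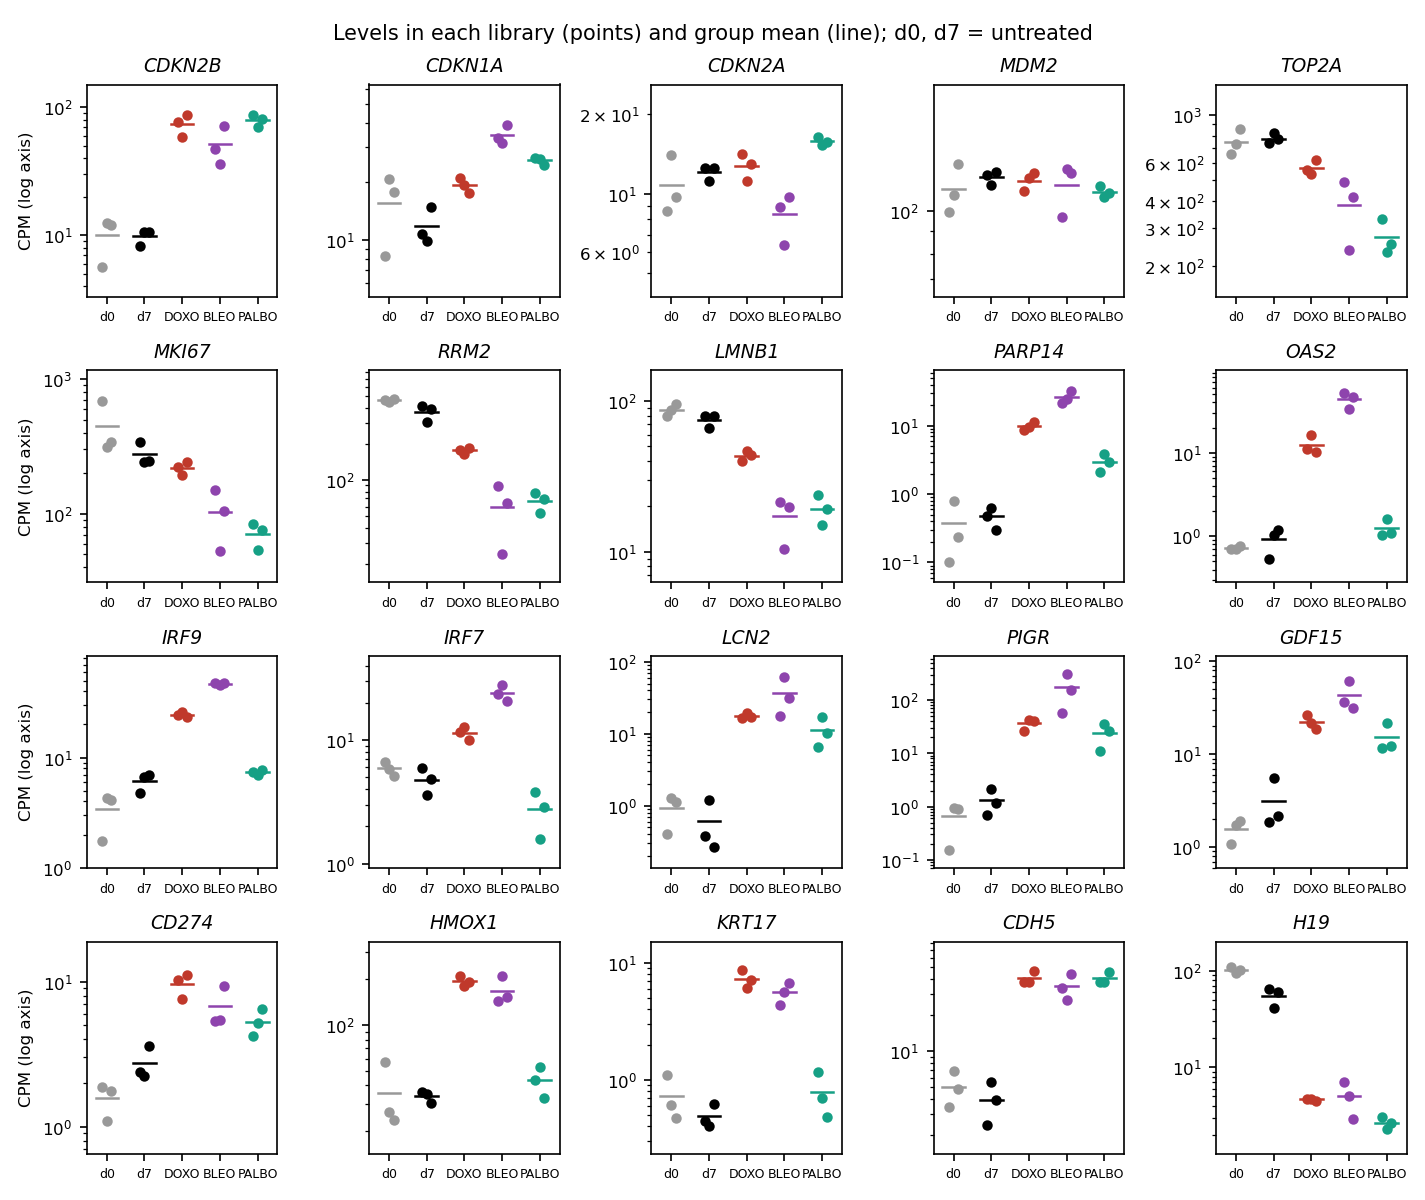
Level (CPM, log axis) of 20 named genes in each of 15 libraries (points) with the mean of 3 (line), for untreated day 0 (d0), untreated day 7 (d7), doxorubicin (DOXO), bleomycin (BLEO) and palbociclib (PALBO). The doxorubicin points of CDKN2B, LCN2, PARP14 and HMOX1 all lie above the untreated points and those of H19 below, MDM2 overlaps, and RRM2 and LMNB1 under doxorubicin sit between the untreated and the other drug-treated libraries.

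To place these changes, doxorubicin cells were tested directly against cells given bleomycin, which cuts DNA strands by another chemistry, and palbociclib, which blocks CDK4 and CDK6 without cutting DNA. The doses differ (10 nmol/L, 10 µmol/L and 1 µmol/L), so these tests compare the groups as treated. Against bleomycin, 767 genes were higher under doxorubicin (5.53%) and 906 lower (6.54%) of 13862 tested. These counts rest on few libraries, as they were 26 and 46 without doxorubicin replicate 1, 41 and 79 without doxorubicin replicate 3, 352 and 601 without doxorubicin replicate 2 and 441 and 508 without bleomycin replicate 2. Against palbociclib, 1856 genes were higher (13.4%) and 1616 lower (11.6%) of 13874. With replicate numbers as a block, which the palbociclib libraries share with the doxorubicin ones, these became 3023 and 2926, and without doxorubicin replicate 1 they were 1051 and 856.

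Mitosis and replication genes were mostly higher under doxorubicin than under either drug. Of the 53 mitosis genes 46 were higher than with palbociclib (median log2 difference 0.75) and 31 higher than with bleomycin (median 0.91). The replication genes were higher in 27 of 37 and 25 of 37 cases. Without doxorubicin replicate 1 or 3 the bleomycin counts fell to 0 of 53 and 1 of 37, while the medians were 0.90 and at least 0.72. The 16 cell-cycle transcription factors went both ways against palbociclib, with 8 higher and 5 lower, and against bleomycin 7 were higher and 0 lower, or 0 higher without doxorubicin replicate 1 and 1 higher without doxorubicin replicate 3. MKI67 averaged 218 CPM under doxorubicin, 103 under bleomycin and 71.0 under palbociclib, a log2 difference of 1.09 (adjusted p = 0.0422, edgeR) and 1.63 (adjusted p = 8.33e-05, edgeR). LMNB1 averaged 43.5, 17.3 and 19.3 CPM and was higher by 1.33 and 1.18, RRM2 was higher by 1.58 and 1.40, and TOP2A was higher than with palbociclib by 1.07 but did not pass against bleomycin (0.58 ± 0.22). That difference passed in DESeq2 (adjusted p = 0.0389), with replicate numbers as a block (0.64, adjusted p = 0.0331, edgeR) and without bleomycin replicate 1 (0.81, adjusted p = 0.0301, edgeR). The MKI67 and RRM2 differences from bleomycin lost their call without any 1 doxorubicin library, that of MKI67 also without bleomycin replicate 3, and that of LMNB1 without doxorubicin replicate 1 or 3.

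Brakes and interferon genes ordered the drugs differently. CDKN1A averaged 19.2 CPM under doxorubicin, 34.8 under bleomycin and 25.7 under palbociclib, lower by -0.86 (adjusted p = 0.00755, edgeR) and -0.42 (adjusted p = 0.00994, edgeR). CDKN2B did not pass in either comparison (0.51 ± 0.23 against bleomycin and -0.10 ± 0.14 against palbociclib), although with replicate numbers as a block the bleomycin difference of 0.55 passed (adjusted p = 0.0123, edgeR), as it did without bleomycin replicate 3 (0.83). Interferon effectors were lower than with bleomycin in 18 of 30 cases and higher in 0 (median -0.76), and higher than with palbociclib in 20 of 30 and lower in 0 (median 0.92). OAS2 averaged 12.5 CPM under doxorubicin, 43.7 under bleomycin and 1.25 under palbociclib, and PARP14 9.89, 26.4 and 2.99 CPM. The bleomycin count was 6 without doxorubicin replicate 1 and 8 without replicate 3. IRF9 was lower than with bleomycin by -0.93 and higher than with palbociclib by 1.74.

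The secreted cytokines held the same middle place, lower than with bleomycin in 6 of 13 and higher than with palbociclib in 7 of 13 (11 of 13 with replicate numbers as a block). Without doxorubicin replicate 1 or 3 the bleomycin count was 3. CD274 did not pass against bleomycin (0.51 ± 0.24, or 0.83 and passing without bleomycin replicate 3) and was higher than with palbociclib by 0.87, a call lost without doxorubicin replicate 1 (adjusted p = 0.0505, edgeR). HMOX1 did not pass against bleomycin (0.21 ± 0.14, or 0.41 and passing without bleomycin replicate 2) and was higher than with palbociclib by 2.18, and KRT17 and FLNC were higher than with palbociclib by 3.22 and 3.24. The p53 targets BTG2 and TP53INP1 and the pumps ABCC3 and ABCC4 were lower than with palbociclib, by -1.29, -0.95, -1.05 and -0.84, the ABCC4 call being lost without doxorubicin replicate 1 (-0.69). ATF4 genes were lower than with bleomycin in 17 of 27 cases and ribosomal protein genes in 51 of 75, counts that were 0 and 0 without doxorubicin replicate 1 or 3. CDH5 was within its spread against both drugs (0.23 ± 0.17 and 0.02 ± 0.11).

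**Figure D4:**
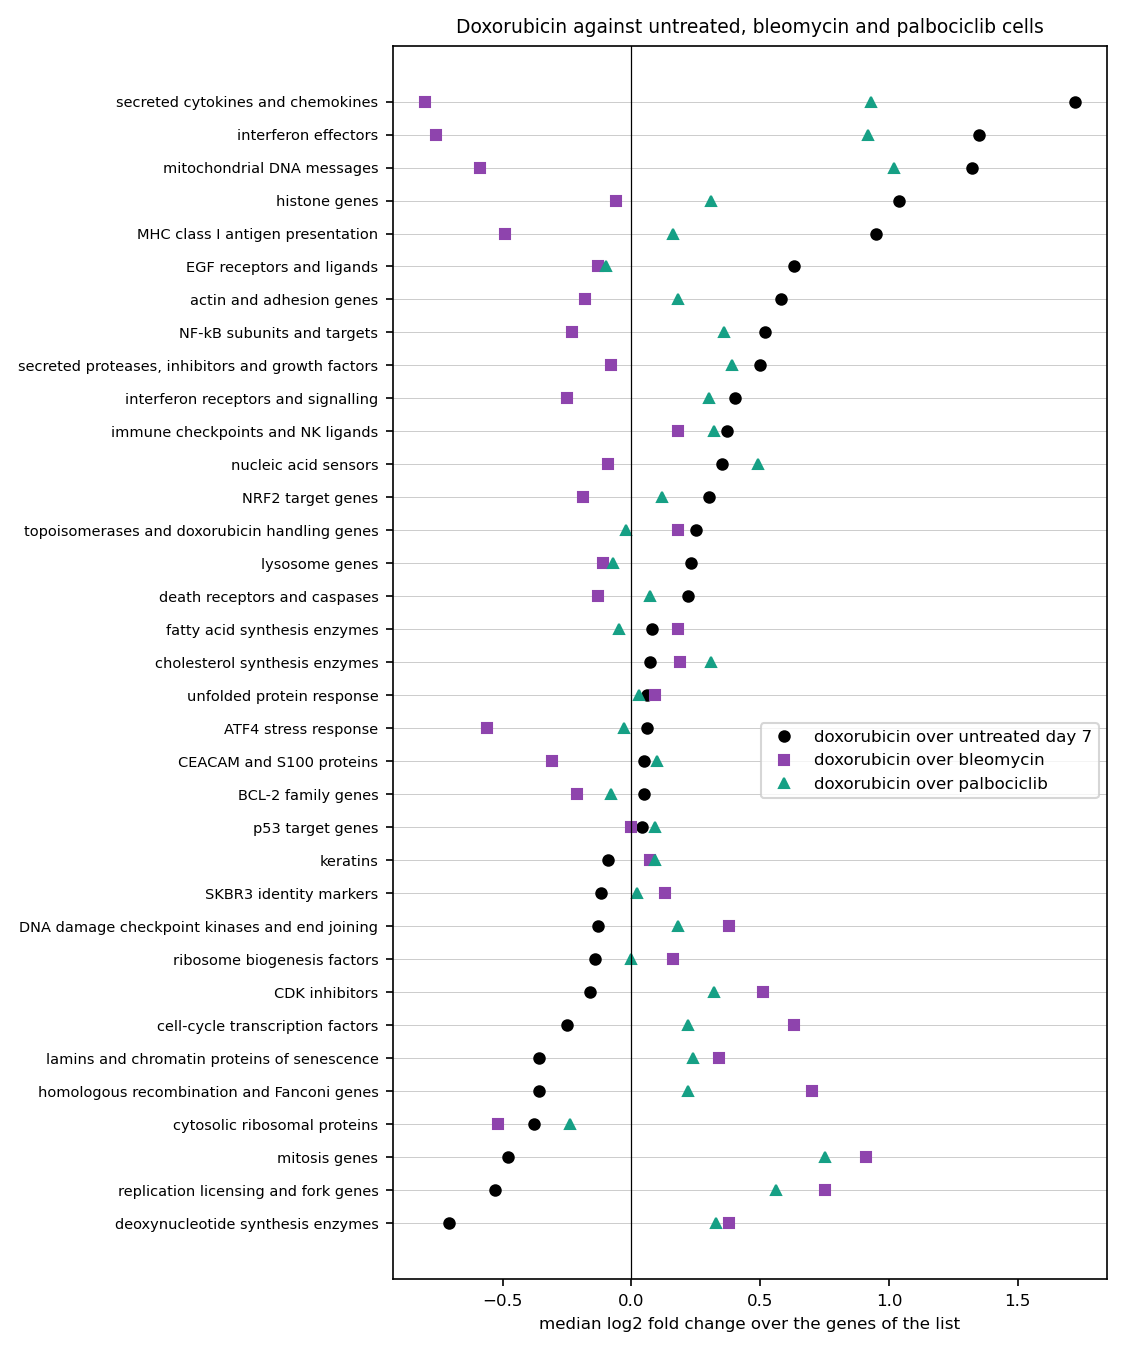
Median log2 fold change over the genes of each list but the markers of other cell types (x axis) for doxorubicin over untreated day 7 (circles), over bleomycin (squares) and over palbociclib (triangles). Mitosis genes lie at -0.48, 0.91 and 0.75 and interferon effectors at 1.35, -0.76 and 0.92, and the 3 comparisons share the doxorubicin libraries.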

How the data were processed

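RNA of SKBR3 cells was sequenced in 24 libraries of 8 groups, and the 6 libraries of the main comparison were used with 9 others beside them. Per the labels and methods, HISAT2 v2.1.0 (genome GRCh37) and StringTie v2.1.3b preceded counting, and the authors deposited raw counts per gene as whole numbers of at least 1. Counting settings and the use of strand are not given in the sources used here, and the kit is one for stranded mRNA per the labels and one for stranded total RNA per the methods. The counts were tested, 2-sided, with edgeR 4.0.16 (R 4.3.3; filterByExpr, TMM, quasi-likelihood, Benjamini-Hochberg over all genes tested), fitting only both groups compared. DESeq2 1.42.0 was an alternative, as were other scaling, filters, references, a replicate block and leaving out each library. On simulated counts with 200 of 13800 genes changed by 1 on the log2 scale, edgeR recovered 84.5% for the main comparison, with 13 false calls. Far fewer genes changed there than were called in the data, and most changes in the data were smaller. The recovery of such small changes was not measured.

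Same-numbered libraries deviated together for doxorubicin and untreated day 7 (r = 0.21, 0.102 and 0.146) and for palbociclib (0.146, 0.369 and 0.257), but not for bleomycin (-0.053, 0.08 and 0.346). The labels only number them. Named genes were the 15 that rose most and the 10 that fell most (without overlap and with at least 1 CPM in the higher group), up to 4 called members of each of 36 lists, and a set of always-named genes. The members and lists were chosen with earlier results of these data known. Promoters come from RefSeq (10793 of 14493 genes matched by gene identifier), and gene positions are for GRCh37. Some genes that the rule names are not reported here.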

Additional observations from a re-analysis of the deposited data

How the results depend on the processing

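Against untreated day-7 cells, counts of genes that rose and fell stayed within 1.5 times the main ones under DESeq2, other scaling, other filters, 1 fit of all 24 libraries, the replicate block and day-0 cells as the reference. With a fold change of at least 2 required they were 970 and 244 (unadjusted p) or 951 and 239 (adjusted p). When 1 library was left out they ranged from 2196 to 3049 and from 2198 to 3031. The replicate block changed 1 call among the named genes in this comparison, MKI67, and gave 3290 and 3230 genes. Of the 6015 genes called, 4602 were called against day 0 too (76.5%), 4597 of them in the same direction.

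Against bleomycin, DESeq2 called 1198 genes higher, the replicate block 1280 higher and 1426 lower although these numbers do not pair the libraries, and leaving out 1 library gave 26 to 1081 higher and 46 to 988 lower. Against palbociclib the replicate block gave 3023 and 2926, and leaving out 1 library 1051 to 1778 and 856 to 1611. These differences were smallest in number without doxorubicin replicate 1.

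Changes of sign were seen against day 0 for BCL2L1 (-0.33), CDKN1B (0.05), KRT15 (-0.02), MDM2 (0.08) and TOP1 (-0.17). When 1 library was left out, the log2 fold change ranged from -0.07 to 0.25 for FASN, -0.06 to 0.03 for MDM2 and -0.04 to 0.04 for TOP2B, and against palbociclib from -0.24 to 0.04 for CDKN2B, -0.44 to 0.05 for TFPI2 and -0.10 to 0.10 for CDH5. The cause was not tested. Of these genes only KRT15 was called in the comparison concerned. Precision is limited by 3 libraries a group, and genes with a count of 0 in any library are not analysed here.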

Other observations

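Genes of the aryl hydrocarbon receptor, a sensor of planar aromatic compounds that induces cytochrome P450 enzymes, were examined after their values were seen. Of 10 such genes 9 were tested, 8 rose and 0 fell, where 21.9% of all genes tested rose and 21.5% fell. CYP1A1 was at 1562, 1912 and 1925 CPM under doxorubicin and 54.1, 376 and 98.9 CPM in untreated day-7 cells (log2 fold change 3.38 ± 0.53, adjusted p = 3.54e-04, edgeR). The untreated libraries differed widely among themselves, with replicate 2 highest, but all were below every doxorubicin library. CYP1B1 was at 922, 1036 and 1081 CPM against 155, 345 and 201 CPM (2.14 ± 0.22). UGT1A6, CYP1A2, TIPARP, AHR, AHRR and NQO1 rose by 3.55, 2.63, 1.08, 0.61, 0.57 and 0.53, and the partner ARNT did not pass (-0.12). The NQO1 call was lost in DESeq2's test (adjusted p = 0.143) and without doxorubicin replicate 2, untreated replicate 1 or untreated replicate 3. UGT1A6 shares its last exons with other UGT1A genes, between which reads can be split. High levels of these genes were not particular to doxorubicin. CYP1A1 averaged 891 CPM under bleomycin and 1304 under palbociclib, and CYP1B1 913 and 635 CPM. Doxorubicin was higher than bleomycin for CYP1A1 (1.01 ± 0.17) but not for CYP1B1 (0.15 ± 0.19). Against palbociclib, CYP1A1 did not pass (0.47 ± 0.23) and CYP1B1 was higher (0.68 ± 0.20). UGT1A6 passed against neither drug.

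Abundant genes that moved strongly were sought with limits also set after the values were seen, a mean of at least 100 CPM over the 6 libraries and a change of at least 4-fold. There were 6 that rose, among them CYP1A1, CYP1B1, HMOX1, GPRC5A and FN1, and 0 that fell. FN1, fibronectin, was at 268, 297 and 420.1 CPM against 64.1, 90 and 74.9 CPM (2.13 ± 0.16) and was lower than with palbociclib (-0.83 ± 0.18). GPRC5A, an epithelial receptor, was at 237, 165 and 251 CPM against 43.5, 36.7 and 39.8 CPM (2.46 ± 0.14). FGFR4, a fibroblast growth factor receptor, was at 52.3, 48.1 and 38.8 CPM against 224, 144 and 177 CPM (-1.95 ± 0.15).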
